A study of Mus musculus with 2 samples.

Results

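The genes described here are the matrix metalloproteases (MMPs), the ADAMTS proteases and the TIMP inhibitors. All features whose symbol is Mmp plus a number, Timp plus a number or Adamts plus a number were taken, which gave 45 of the 32287 features: 22 *Mmp*, 19 *Adamts* and 4 *Timp* genes. Of these, 36 had at least 100 UMIs (unique molecular identifiers, each standing for 1 captured transcript) over all kept cells and are described with levels: 16 *Mmp*, 16 *Adamts* and 4 *Timp* genes. The other 9 are given by their UMIs alone.

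Cells were collected 7 days after injury (7 dpi) from hind limb muscle of *S100GFP*-tg mice, whose Schwann cells carry a GFP reporter, after both peroneal nerves had been crushed. The IgG library came from mice given goat anti-mouse IgG, and the SPP1-nAb library from mice given an antibody that neutralizes SPP1 (osteopontin). Each injection into the tibialis anterior (TA) held 2 μg in 10 μL, at injury and every 2 days afterward. The mice were 10 to 16 weeks old, male, pooled within a library and, per the labels, of the C57BL/6J strain. The number of mice is not given in the sources used here. The protocols name TA and gastrocnemius muscles while the text of the study names TA, and the sample titles name GFP-positive cells while the protocols sort GFP-positive and GFP-negative cells. Both libraries hold mainly cells that are not Schwann cells. Muscles were digested with dispase, collagenase type II and hyaluronidase before sorting, in both groups.

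The IgG library held 97607674 UMIs on 23779 barcodes and the SPP1-nAb library 127719916 UMIs on 25069 barcodes, of which 163 barcodes occurred in both. After filters and removal of doublets, 21047 and 22282 cells were kept, with medians of 3609 and 4537 UMIs. They were clustered with the 45 genes, *Spp1* and the pathway genes left out of the clustering genes, and clusters were placed in 12 classes by marker genes. The class names were rebuilt here, stand for cells like the named type, and are written without "-like" except for one weakly supported class. Mononuclear phagocytes made up 53.9% of IgG and 65.6% of SPP1-nAb cells, while mesenchymal cells (fibro-adipogenic progenitors and fibroblasts) made up 10.0% and 3.80%. All 10 phagocyte, 9 mesenchymal and 7 tenocyte markers were found in at least 10% of the cells of their class. The nerve-sheath-like class rested on 3 of 6 markers, and only 25 of its 405 cells passed the same markers cell by cell.

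Each group is 1 library, so there is no test and no p-value. Levels are CPM, always with IgG first and SPP1-nAb second (a gene's UMIs relative to all UMIs of the class, scaled to a fixed total), with exact Poisson 95% intervals, and differences are log2 of SPP1-nAb over IgG with exact 95% intervals. All intervals cover counting error only, not differences between mice, and an interval that excludes 0 says that 2 libraries differed. A gene with at least 100 UMIs in a class over both libraries counted as past the fold when its ratio was at least 1.5.

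MMPs are zinc-dependent proteases that cut collagens, laminins and other matrix proteins, and most are secreted as inactive proforms or held at the cell membrane. ADAMTS proteases are secreted relatives with thrombospondin repeats that cut proteoglycans, process procollagens or act on microfibrils. TIMPs bind and block the active site of these enzymes, with TIMP3 held in the matrix and active on several ADAMTS proteases. In injured muscle and nerve, these enzymes come from infiltrating leukocytes, mesenchymal cells and glia, and act on the basement membrane that guides regrowing axons and muscle fibers.

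Several *Mmp* genes are classic targets of AP-1, a transcription factor of the Fos and Jun families, and their proximal promoters show its site. In the 250 bases before the start of the canonical transcript (GRCm39, GENCODE M39), the motif TGANTCA, which reads the same on both strands, was present in 10 of 22 *Mmp*, 1 of 19 *Adamts* (*Adamts3*) and 0 of 4 *Timp* promoters, beside 6.18% of 21757 promoters of protein-coding genes. The motif TATAAA, searched on both strands, was present in 8, 3 and 0 of them, beside 11.9% of all. A match is a stretch of letters and not a measured site. The last 120 bases before the start are printed below for 5 *Mmp* genes whose levels the results turn on, all on the plus strand, in lower case with the AP-1 motif in capitals. They lie at chr9:7445702-7445821 (*Mmp3*), chr9:7347254-7347373 (*Mmp12*), chr9:7272394-7272513 (*Mmp13*), chr10:128626653-128626772 (*Mmp19*) and chr2:164790019-164790138 (*Mmp9*).
Mmp3: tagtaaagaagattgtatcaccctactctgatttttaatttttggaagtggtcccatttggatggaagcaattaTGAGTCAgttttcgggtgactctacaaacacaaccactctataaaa
Mmp12: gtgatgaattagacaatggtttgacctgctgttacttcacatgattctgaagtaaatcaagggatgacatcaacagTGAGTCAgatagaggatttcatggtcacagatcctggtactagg
Mmp13: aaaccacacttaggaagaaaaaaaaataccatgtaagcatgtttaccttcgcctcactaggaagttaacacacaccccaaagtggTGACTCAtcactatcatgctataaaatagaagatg
Mmp19: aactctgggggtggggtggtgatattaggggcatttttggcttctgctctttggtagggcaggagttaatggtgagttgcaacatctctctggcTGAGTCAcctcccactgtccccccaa
Mmp9: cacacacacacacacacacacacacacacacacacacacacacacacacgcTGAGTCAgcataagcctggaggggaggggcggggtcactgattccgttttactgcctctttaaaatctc

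The motif starts at -46 in *Mmp3*, -44 in *Mmp12*, -35 in *Mmp13*, -26 in *Mmp19* and -69 in *Mmp9*, counted from the transcript start. *Mmp3*, *Mmp12* and *Mmp13* belong to a group of 9 *Mmp* genes within 427 kb of chromosome 9 (7272514 to 7699587), which also holds *Mmp1b*, *Mmp7*, *Mmp8*, *Mmp10*, *Mmp20* and *Mmp27*. By class, over both libraries together, *Mmp3* UMIs were mainly in mesenchymal cells (86.4%) and *Mmp8* (81.8%) and *Mmp12* (59.0%) UMIs mainly in phagocytes. *Mmp13* was split between phagocytes (60.8%) and tenocytes (31.3%). The tenocyte part differed between the libraries, with 30 of 762 *Mmp13* UMIs in IgG and 692 of 1547 in SPP1-nAb.

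**Figure D1:**
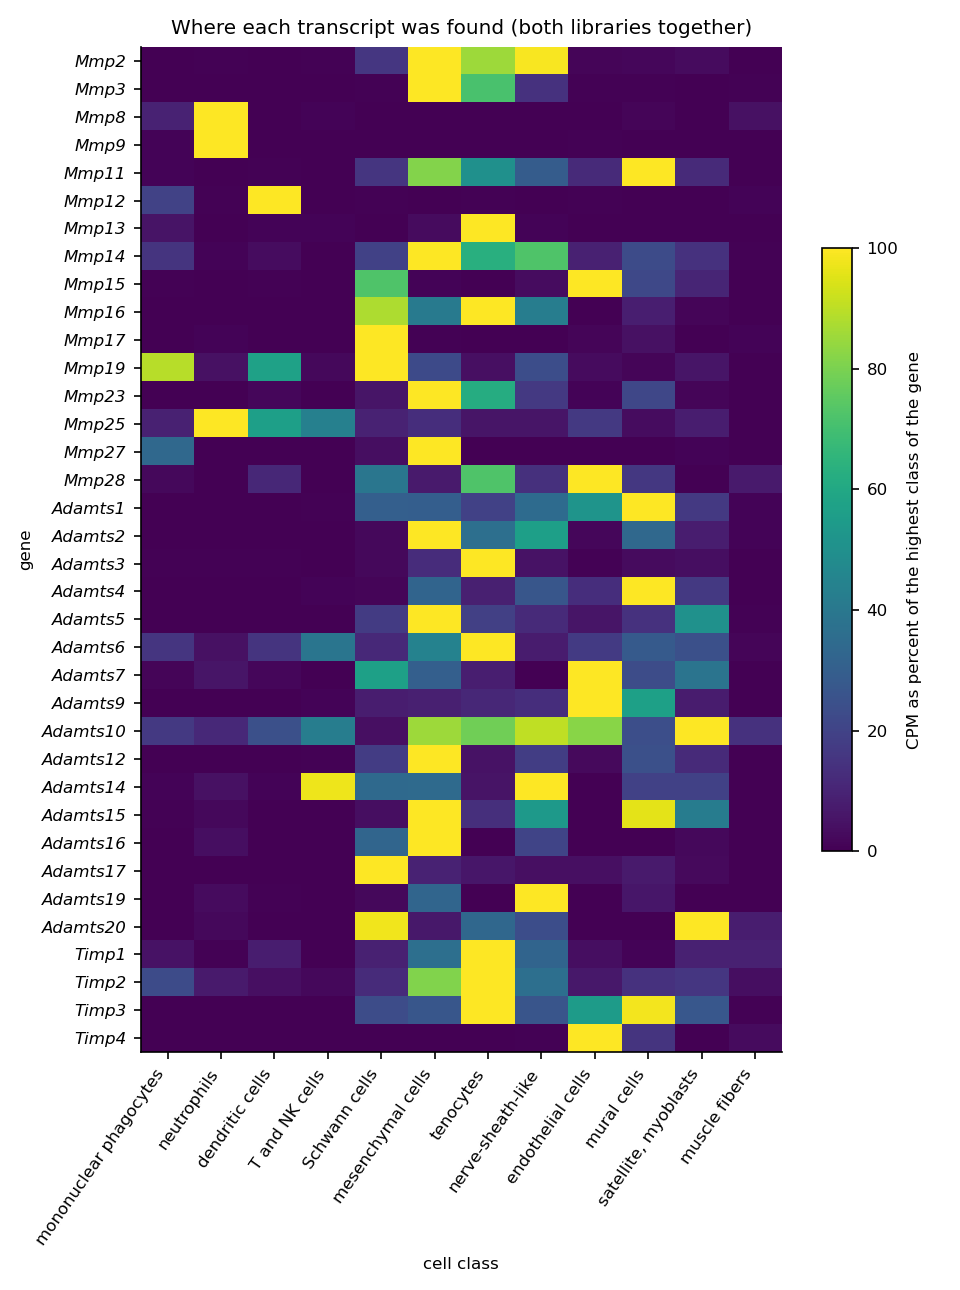
For each of the 36 genes (rows), color gives the CPM of each cell class (columns), both libraries together, as a percent of the class where that gene is highest. *Mmp8* and *Mmp9* are highest in neutrophils, *Mmp12* in dendritic cells, *Mmp13* in tenocytes, *Mmp17* in Schwann cells and *Timp4* in endothelial cells. Colors cannot be compared between rows.

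Among mononuclear phagocytes, 16 of the genes reached 100 UMIs. *Mmp19* and *Timp1* were past the fold in the direction of SPP1-nAb (2 of 16, beside 2.48% of 12257 genes), and *Mmp9* and *Adamts5* in the direction of IgG (2 of 16, beside 8.51%). The median log2 ratio of the 16 was -0.08, against -0.04 over all genes. In mesenchymal cells, 5 of 25 were higher in the SPP1-nAb library (*Mmp3*, *Mmp11*, *Mmp19*, *Adamts9*, *Timp1*; 4.84% of all genes) and 4 lower (*Mmp27*, *Adamts12*, *Adamts16*, *Timp3*; 6.82%), with a median of 0.11 against -0.03. In tenocytes, 7 of 16 were higher (*Mmp3*, *Mmp13*, *Mmp14*, *Mmp16*, *Adamts1*, *Adamts9*, *Timp1*; 6.87%) and *Adamts6* was lower (3.7%), with a median of 0.54 against 0.03. In dendritic cells, 4 of 8 were higher (*Mmp12*, *Mmp14*, *Mmp19*, *Timp1*; 3.82%) and *Adamts6* was lower (2.9%). Satellite cells and myoblasts, the stem and progenitor cells of muscle, had 2 of 15 higher (*Mmp19*, *Timp1*; 6.8%) and 3 lower (*Mmp2*, *Adamts1*, *Adamts20*; 3.84%). Schwann cells had 0 of 13 higher (1.73%) and *Mmp16* lower (2.39%). Endothelial cells had 0 of 5 higher (2.83%) and *Timp4* lower (3.7%), mural cells 2 of 7 higher (*Adamts4*, *Adamts9*; 2.76%) and 0 lower (2.85%), and neutrophils 0 of 3 in either direction (5.32% higher, 4.28% lower). *Timp1* was past the fold toward SPP1-nAb in each of the classes phagocytes, dendritic cells, mesenchymal cells, tenocytes and satellite cells, and in Schwann cells it was not. In T and NK cells (5.24% higher, 2.56% lower) and muscle fibers (4.15% higher, 2.3% lower), 0 of the 45 genes reached 100 UMIs. The call of *Adamts5* in phagocytes was lost with cells gated one by one (log2 -0.02) and that of *Timp1* with no doublets removed (0.57). Free RNA was estimated for each class from markers of other lineages and taken off. *Adamts5* in phagocytes was then at 0 in both libraries, and *Mmp19* in satellite cells at 2.60 and 0 CPM, so neither call held.

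**Figure D2:**
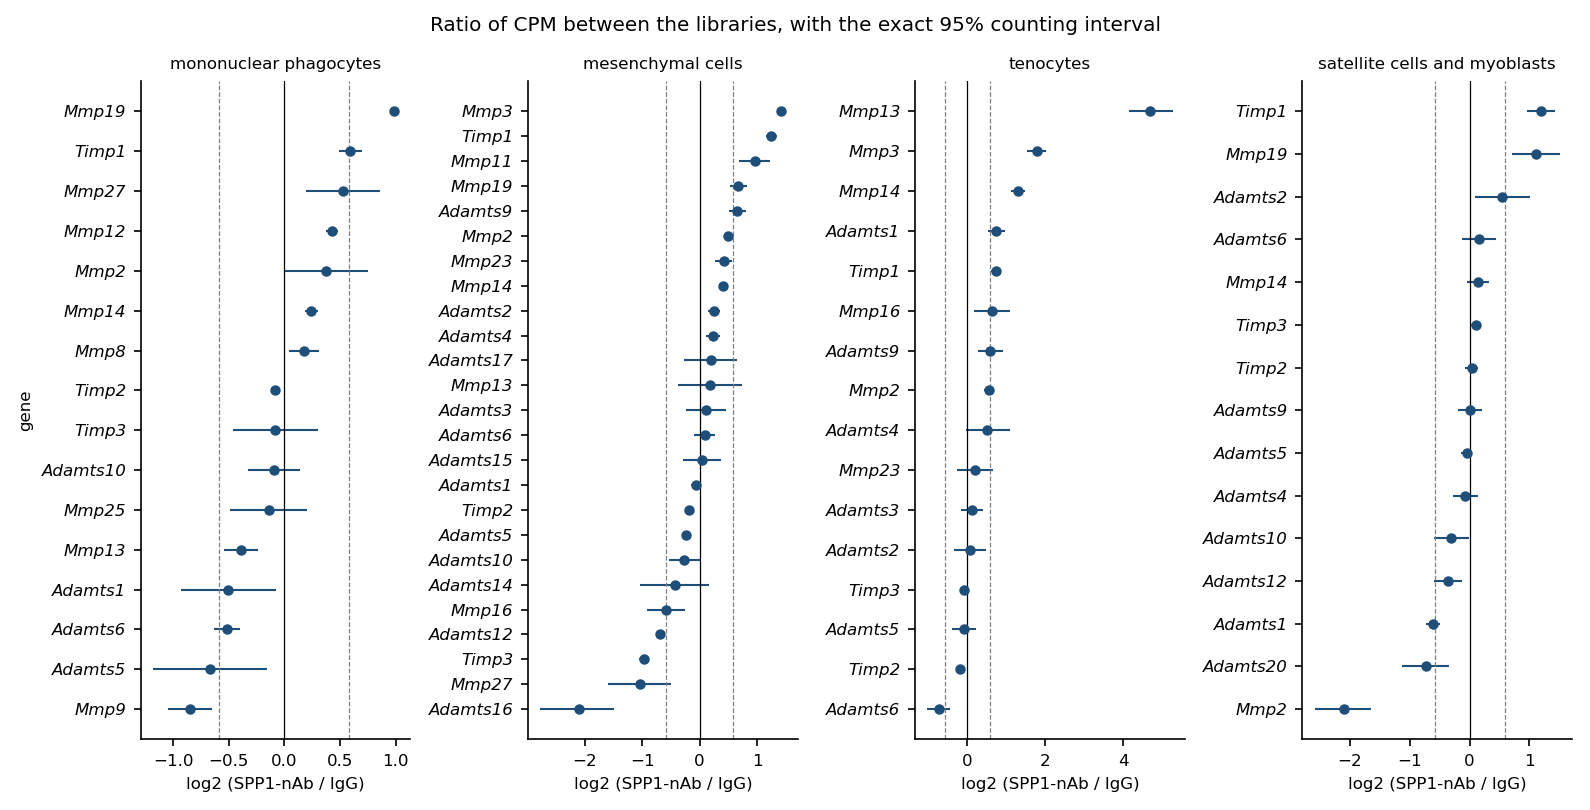
Points give the log2 ratio of CPM, SPP1-nAb over IgG, for each gene with at least 100 UMIs in mononuclear phagocytes, mesenchymal cells, tenocytes and satellite cells and myoblasts. Bars are exact 95% counting intervals, dashed lines mark a ratio of 1.5 in either direction, and the horizontal scales differ between panels. *Mmp13* in tenocytes lies farthest to the right, at 4.68.

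*Mmp19* encodes a secreted MMP that acts on basement membrane proteins. Its gene (ENSMUSG00000025355, chromosome 10, 128626773 to 128636695) gave 44121 UMIs, 84.6% of them in mononuclear phagocytes. Phagocytes held it at 189 (185 to 193) against 376 (372 to 380) CPM, a log2 ratio of 0.99 (0.95 to 1.02). The level was 1.99-fold higher with SPP1-nAb, and the intervals did not overlap. A *Mmp19* UMI was found in 28.5% of IgG and 50.7% of SPP1-nAb phagocytes. With every cell thinned to 2000 UMIs, which left out 732 and 688 shallower cells, the shares were 19.3% (18.6 to 20.1) and 34.6% (33.8 to 35.4). In T and NK cells, which should lack it, 0 of 40 thinned IgG cells (allowing up to 7.5%) and 2 of 64 thinned SPP1-nAb cells (3.12%) had a UMI, at median depths of 2889 and 3607 UMIs against 3913 and 4924 in phagocytes.

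*Mmp19* was higher in the SPP1-nAb library in all 10 clusters of phagocytes, with intervals above 0 in each, and log2 ratios from 0.34 to 1.98. In both libraries it was highest in the cluster led by *Atp6v0d2* and *Rnf128*, whose *Spp1* level was 3145 and 3445 CPM, at 394 and 612 CPM. It was low in the cluster led by the resident macrophage genes *Cd209f* and *Lyve1*, at 59.2 and 149 CPM. The smallest ratio was in the interferon-response cluster led by *Ifit1bl1* and *Rsad2*, with 229 and 289 CPM. Cluster shares also differed: the *Atp6v0d2*/*Rnf128* cluster took 11.5% of IgG and 17.7% of SPP1-nAb phagocytes, and the *Cd209f*/*Lyve1* cluster 24.2% and 16.0%. With every cluster given the same share in both libraries, the log2 ratio was 0.72. Genes of the dissociation response, 12 immediate early and heat shock genes of which none was at 0, summed to 8973 against 5752 CPM in phagocytes, and their part in these ratios was not tested.

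Other classes showed *Mmp19* as well. Dendritic cells had 149 (141 to 158) and 235 (225 to 245) CPM, and mesenchymal cells 62.7 (58.3 to 67.3) and 99.7 (92.5 to 107) CPM. Subclusters are clusters made at a finer resolution, and each can hold some cells from outside the cluster it is named under. Under the mesenchymal cluster led by *Gdf10* and *Inmt*, the subcluster led by *Gdf10*, *Inmt* and *C7* had 54.2 and 95.9 CPM (log2 0.82). The intervals of the *Lrrc15*/*Cthrc1* (log2 0.13, -0.23 to 0.48) and *Fetub*/*Cxcl14* (log2 0.19, -0.10 to 0.48) subclusters included 0. Schwann cells had 362 (331 to 395) and 324 (298 to 352) CPM, a log2 ratio of -0.16 (-0.33 to 0.02). Nerve-sheath-like cells had 82.6 (65.8 to 102) and 76.9 (50.7 to 112) CPM, a log2 ratio of -0.10 (-0.79 to 0.54). In neither of these 2 classes did the interval of the ratio lie above 0. The Schwann value rested on few cells, as the 10 highest IgG cells held 229 of 509 UMIs. A UMI was found in 20.7% of IgG and 27.9% of SPP1-nAb Schwann cells. With the 10 highest cells of each library left out, Schwann cells had 199 and 227 CPM, a log2 ratio of 0.19.

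**Figure D3:**
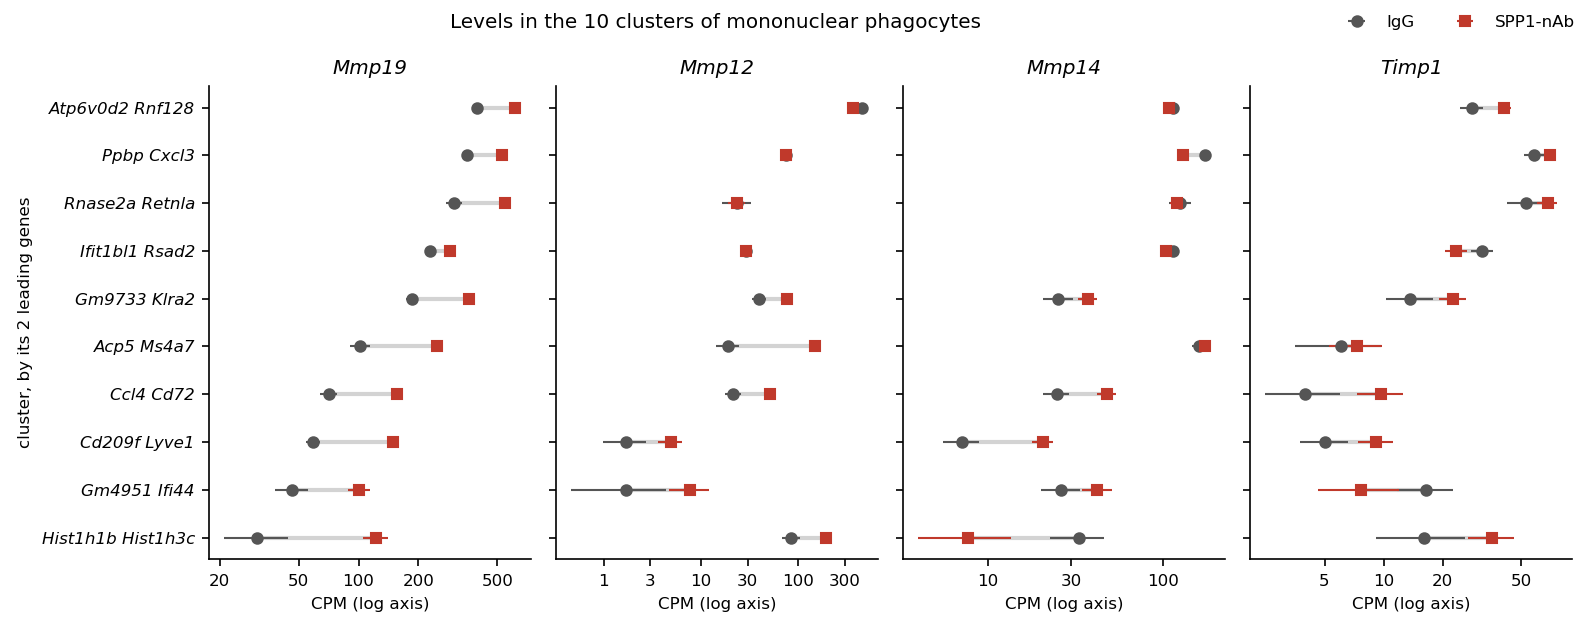
CPM (log axis) of *Mmp19*, *Mmp12*, *Mmp14* and *Timp1* in the 10 clusters of mononuclear phagocytes, named by 2 leading genes, for the IgG (grey circles) and SPP1-nAb (red squares) libraries, with exact Poisson 95% intervals. *Mmp19* lies to the right in SPP1-nAb in all 10 clusters, while *Mmp12*, *Mmp14* and *Timp1* differ in direction between clusters.

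*Mmp12*, the macrophage metalloelastase, cuts elastin and basement membrane proteins. It stood at 92.5 (89.7 to 95.3) against 124 (122 to 127) CPM in phagocytes, a log2 ratio of 0.43 (0.38 to 0.48). At fixed cluster shares the ratio was 0.01, and the cluster that holds most *Mmp12* was the one with the larger share in the SPP1-nAb library. In that cluster, led by *Atp6v0d2* and *Rnf128*, the level was lower in the SPP1-nAb library, at 450 and 360 CPM (log2 -0.32). In the cluster led by *Acp5* and *Ms4a7* it was 18.9 and 147 CPM (log2 2.96). The transcript was concentrated in few cells: 393 of 11335 IgG phagocytes (3.47%) and 1057 of 14609 SPP1-nAb phagocytes (7.24%) had a UMI. Thinned to 2000 UMIs, the shares were 2.49% and 4.99%, beside 0 of 78 and 1 of 101 endothelial cells. A single IgG cell held 569 of the 4339 UMIs, and the 10 highest cells held 45.2% of the UMIs in IgG and 16.1% in SPP1-nAb. With the 10 highest cells of each library left out, the level was 50.7 and 104 CPM, a log2 ratio of 1.04. The size of the difference thus rested on few cells. The ratio at fixed cluster shares and the levels by cluster include these cells, and how far they rest on them was not tested.

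In dendritic cells *Mmp12* was 318 (306 to 331) against 782 (763 to 800) CPM, a log2 ratio of 1.30 (1.23 to 1.36). Nearly all of these UMIs belonged to 1 of the 4 dendritic clusters, led by *Cd209a* and *Cd7*. Under this cluster, the subcluster led by *Dcstamp*, *Cd226*, *Mmp12* and *Ccl17* had 1106 against 2103 CPM. It lay partly outside the cluster: it held 2453 IgG *Mmp12* UMIs, and the cluster 2405. The subcluster led by *Cd7* and *Cd209a* had 16.2 and 87.7 CPM. *Mmp12* was itself among the leading genes of the first subcluster, which is a description of those cells. With cells gated one by one, phagocytes held 98.5% of IgG *Mmp12* UMIs against 63.6% by clusters, and the dendritic ratio was then 2.35. Whether these cells count as dendritic cells thus depends on the gate.

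The collagenases *Mmp8* and *Mmp13* cut fibrillar collagens, and *Mmp8* is stored in neutrophil granules. *Mmp8* was highest in neutrophils, at 146 (119 to 178) and 174 (155 to 195) CPM. Phagocytes held most of its UMIs at a lower level, 14.8 (13.7 to 15.9) and 16.7 (15.8 to 17.6) CPM. Neither class was past the fold. In phagocytes *Mmp8* was found in the clusters led by *Gm9733* and *Klra2* (36.4 and 34.8 CPM) and by *Atp6v0d2* and *Rnf128* (29.3 and 30.3 CPM), and was nearly absent from the *Cd209f*/*Lyve1* cluster (3 and 5 UMIs). The summed level of the 8 neutrophil markers in phagocytes was 61.7 and 132 CPM, with 1 and 0 markers at 0, and its part was not tested.

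*Mmp13* showed the widest gap of the 45 genes in a class with 100 UMIs. Tenocytes, the fibroblasts of tendon, held it at 17.1 (11.5 to 24.4) against 438 (406 to 472) CPM, a log2 ratio of 4.68 (4.15 to 5.26). In IgG, 30 UMIs lay in 2 of 677 cells, and in SPP1-nAb, 692 UMIs lay in 34 of 430 cells. Thinned to 2000 UMIs, the shares were 0.471% (0.0570 to 1.69) and 7.86% (5.15 to 11.4). The T and NK cells had 0 of 40 and 0 of 64 (allowing up to 7.5% and 4.69%). Few cells carried the level: 1 SPP1-nAb cell held 136 UMIs, and the 10 highest held 552 of the 692. The 34 cells had a median of 7539 UMIs, against 3219 in all SPP1-nAb tenocytes. In phagocytes the direction was the opposite, with 13.4 (12.4 to 14.5) and 10.2 (9.53 to 11.0) CPM, a log2 ratio of -0.39 (-0.54 to -0.24). With cells gated one by one, the tenocyte ratio was 3.92.

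*Mmp3* (stromelysin 1) cuts proteoglycans, laminin and fibronectin and can activate other MMPs. Mesenchymal cells held it at 203 (195 to 211) against 541 (524 to 558) CPM, a log2 ratio of 1.42 (1.34 to 1.49). A UMI was found in 18.4% and 42.7% of the cells, and after thinning in 12.4% (11.0 to 13.9) and 27.7% (24.7 to 30.8), while T and NK cells had 0 of 40 and 0 of 64, at median depths of 5193 and 8285 UMIs in mesenchymal cells. The level and the share of cells were therefore both higher in the SPP1-nAb library. The gap lay in the cluster led by *Gdf10* and *Inmt*, at 230 and 606 CPM, and not in the cluster led by *Krtdap* and *Pi16*, at 193 and 170 CPM. Under the former, the subcluster led by *Gdf10*, *Inmt*, *C7* and *Sult1e1* had 216 and 819 CPM. The subcluster led by *Lrrc15* and *Cthrc1* had 226 and 320 CPM, and the subcluster led by *Fetub* and *Cxcl14* 293 and 435 CPM. At fixed cluster shares the ratio was 1.24. The 12 dissociation genes summed to 12359 and 10310 CPM in mesenchymal cells, and their part was not tested.

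Tenocytes had *Mmp3* at 109 (94.0 to 125) and 373 (344 to 405) CPM, a log2 ratio of 1.78 (1.54 to 2.02). Here too a few cells held most UMIs: the 10 highest held 171 of 191 in IgG and 495 of 589 in SPP1-nAb. *Mmp3* and *Mmp13* were found together in 0 IgG tenocytes and 13 SPP1-nAb tenocytes, of 26 and 43 cells with *Mmp3*. The *Mmp3* ratio was 0.81 with no doublets removed, 0.96 with no integration and 2.55 with cells gated one by one. In tenocytes the 10 phagocyte markers summed to 449 against 776 CPM and the 9 mesenchymal markers to 32483 and 23649 CPM, with none at 0 in either, and their part was not tested. *Mmp11* (stromelysin 3), which acts on serpins more than on matrix, was 18.4 (16.1 to 21.0) and 35.7 (31.5 to 40.4) CPM in mesenchymal cells.

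The gelatinases *Mmp2* and *Mmp9* cut denatured collagen and the type IV collagen of basement membranes. *Mmp9* was a transcript of neutrophils, at 666 (606 to 730) against 875 (832 to 920) CPM, a log2 ratio of 0.39 (0.24 to 0.55). In phagocytes it was 9.53 (8.66 to 10.5) and 5.30 (4.79 to 5.84) CPM, a log2 ratio of -0.85 (-1.04 to -0.65). That difference came with the *Cd209f*/*Lyve1* cluster, at 33.0 and 12.8 CPM, while the cluster led by *Ppbp* and *Cxcl3* went the other way, at 2.93 and 10.1 CPM. At fixed cluster shares the ratio was -0.52, inside the fold. Neutrophils were 551 IgG and 1224 SPP1-nAb cells and held 49.0% and 77.0% of all *Mmp9* UMIs.

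*Mmp2* was mainly mesenchymal (77.1% of 17452 UMIs), at 608 (594 to 622) and 859 (837 to 880) CPM, a log2 ratio of 0.50 (0.45 to 0.55). It was higher in SPP1-nAb in each of the 3 mesenchymal clusters, with log2 ratios of 0.44 to 0.63. The subclusters under the *Gdf10*/*Inmt* cluster differed. The one led by *Gdf10*, *Inmt* and *C7* had 551 and 972 CPM (log2 0.82), and the *Fetub*/*Cxcl14* subcluster 800 and 956 CPM (log2 0.26). The *Lrrc15*/*Cthrc1* subcluster was lower with SPP1-nAb, at 750 and 546 CPM (log2 -0.46, -0.58 to -0.34). In satellite cells and myoblasts the level was 32.8 (28.5 to 37.5) and 7.62 (5.62 to 10.1) CPM, a log2 ratio of -2.10 (-2.59 to -1.65). With the free-RNA part removed it was 26.4 and 0 CPM. The IgG level there came mostly from the cluster led by *Nppc* and *Gal*, at 70.8 and 17.0 CPM. The 9 mesenchymal markers summed to 453 and 431 CPM in satellite cells and the 12 dissociation genes to 13536 and 8102 CPM, and their part was not tested.

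*Mmp14* is the membrane-type MMP that activates proMMP2 and cuts pericellular collagen. Mesenchymal cells had 505 (492 to 518) and 671 (652 to 690) CPM, a log2 ratio of 0.41 (0.35 to 0.46), higher in all 3 clusters. Under the *Gdf10*/*Inmt* cluster, the subcluster led by *Gdf10*, *Inmt* and *C7* had 354 and 657 CPM (log2 0.89). The *Lrrc15*/*Cthrc1* subcluster, which had the highest *Mmp14* of the 3, was lower with SPP1-nAb, at 1036 and 770 CPM (log2 -0.43, -0.53 to -0.32), and the *Fetub*/*Cxcl14* subcluster had 674 and 641 CPM (log2 -0.07, -0.21 to 0.06). Tenocytes had 213 (192 to 235) and 520 (485 to 556) CPM, a log2 ratio of 1.29 (1.11 to 1.47). In phagocytes it was 76.1 (73.7 to 78.7) and 89.9 (87.8 to 92.1) CPM, but -0.03 at fixed cluster shares, with 5 clusters higher and 5 lower. The *Cd209f*/*Lyve1* cluster had 7.10 and 20.7 CPM, whereas the *Ppbp*/*Cxcl3* cluster, the highest of the 10 in IgG, had 175 and 131 CPM.

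The other membrane-type genes were sparser. *Mmp17* was a Schwann cell transcript, with 86.9% of its 557 UMIs there, at 149 (129 to 170) and 158 (140 to 178) CPM, a log2 ratio of 0.09 (-0.18 to 0.35). *Mmp16*, which also activates proMMP2, was 57.6 (45.8 to 71.6) and 33.3 (25.3 to 43.0) CPM in Schwann cells, 23.6 and 15.8 CPM in mesenchymal cells, and 39.9 (31.1 to 50.4) and 62.1 (50.4 to 75.7) CPM in tenocytes. Neither call held in all settings: the tenocyte ratio was 0.11 with 20% doublets removed, and the Schwann ratio -0.31 with cells gated one by one. *Mmp15* had 26 IgG and 6 SPP1-nAb UMIs in endothelial cells, at 38.2 and 8.66 CPM, too few for the 100-UMI rule. Of the classes, neutrophils were highest in *Mmp25*, a leukocyte enzyme anchored by lipid, at 24.7 and 27.2 CPM. It was level in phagocytes, at 2.54 and 2.30 CPM. Dendritic cells held 33.7% of its UMIs. Their cluster led by *Il12b* and *Ccl22* was higher than the neutrophil class, at 136 and 124 CPM, on 46 and 70 UMIs.

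Of the remaining *Mmp* genes, *Mmp23* was mesenchymal (83.7%), at 70.3 (65.6 to 75.2) and 93.7 (86.7 to 101) CPM. *Mmp27* had 66.9% of its 541 UMIs in phagocytes, at 2.32 and 3.34 CPM, and was 10.8 (9.05 to 12.9) and 5.31 (3.76 to 7.28) CPM in mesenchymal cells. *Mmp28* (epilysin) had 246 UMIs spread over 6 classes with at least 10% each, and 24.4% in phagocytes at 0.533 and 0.462 CPM. *Mmp1b* and *Mmp7* had 1 UMI each, *Mmp21* 2, *Mmp20* 10, *Mmp10* 16 and *Mmp24* 18. *Mmp1b* overlaps *Mmp12* by coordinates on the other strand.

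Among the ADAMTS proteases that cut proteoglycans (*Adamts1*, *Adamts4*, *Adamts5*, *Adamts8*, *Adamts9*, *Adamts15*, *Adamts20*), *Adamts5* was mesenchymal, at 594 (581 to 608) and 503 (487 to 520) CPM, with a second level in satellite cells of 288 (275 to 302) and 278 (266 to 292) CPM. It was highest in the *Krtdap*/*Pi16* cluster, at 1358 and 1169 CPM. *Adamts1* was highest in mural cells, the pericytes and smooth muscle of vessels, at 1058 (983 to 1138) and 1249 (1152 to 1351) CPM. In satellite cells it was 227 (215 to 239) and 149 (140 to 159) CPM, a log2 ratio of -0.61 (-0.72 to -0.49), and was lower in SPP1-nAb in all 4 clusters. The satellite ratio was inside the fold with 20% doublets removed (-0.44) and at fixed cluster shares (-0.43). In tenocytes *Adamts1* was 168 (150 to 189) and 281 (255 to 308) CPM, the opposite direction. *Adamts9* was 856 (788 to 928) and 929 (859 to 1004) CPM in endothelial cells, 374 (329 to 423) and 688 (617 to 765) CPM in mural cells, and 64.9 (60.4 to 69.6) and 102 (94.5 to 109) CPM in mesenchymal cells. Of the 3 mesenchymal clusters, 2 were higher and 1 lower with SPP1-nAb, with log2 ratios from -1.05 to 2.72. The mesenchymal *Adamts9* ratio of 0.65 was 0.57, inside the fold, with the 10 highest cells left out. *Adamts4* was 308 (268 to 352) and 485 (425 to 550) CPM in mural cells, and 116 and 137 CPM in mesenchymal cells. The mural class had 211 IgG and 133 SPP1-nAb cells. The mural *Adamts4* ratio of 0.65 was 0.48 with the 10 cells highest in it left out of each library.

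*Adamts15* was level in mesenchymal cells, at 17.5 and 18.0 CPM. *Adamts20* had 67.8% of its 357 UMIs in satellite cells, at 23.4 (19.9 to 27.4) and 14.1 (11.3 to 17.4) CPM, and was lower in SPP1-nAb in all 4 clusters. *Adamts8* had 58 UMIs.

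The procollagen N-proteinases *Adamts2*, *Adamts3* and *Adamts14* remove the amino-terminal propeptide of fibrillar procollagens. None was past the fold in mesenchymal cells or tenocytes. *Adamts2* was mesenchymal (80.6%), at 153 (146 to 161) and 182 (172 to 192) CPM. *Adamts3* was highest in tenocytes, at 116 (101 to 133) and 127 (110 to 146) CPM. *Adamts14* was 6.75 and 5.03 CPM in mesenchymal cells. The collagen genes they serve were moderately higher in mesenchymal cells, *Col1a1* with 5007 and 6434 CPM and *Col3a1* with 7257 and 10012 CPM, both inside the fold.

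*Adamts12* and *Adamts7* cut the cartilage protein COMP. *Adamts12* was mesenchymal (83.3% of 8844 UMIs), at 448 (436 to 460) and 278 (266 to 291) CPM, a log2 ratio of -0.69 (-0.76 to -0.61), and was lower in all 3 clusters, and it was -0.58, inside the fold, with 20% doublets removed. It was highest in the cluster led by *Dlk1* and *Kcnb2*, at 1186 and 623 CPM, which held 200 IgG cells and 15 SPP1-nAb cells. Its substrate *Comp* was the reverse, at 68.1 and 114 CPM. *Adamts7* had 124 UMIs, with 1.83 and 2.79 CPM in mesenchymal cells.

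Several ADAMTS proteases act on fibrillin microfibrils or have few known substrates. *Adamts6* was 24.3 (22.9 to 25.7) and 16.9 (16.0 to 17.9) CPM in phagocytes, a log2 ratio of -0.52 (-0.64 to -0.40), and lower in SPP1-nAb in 9 of 10 clusters. Its highest level was in tenocytes, at 158 (140 to 178) and 95.7 (81.0 to 112) CPM, a log2 ratio of -0.73 that was -0.31 by the mean over cells. *Adamts10* was not past the fold in phagocytes, mesenchymal or satellite cells, where it was 5.46 and 5.10, 29.0 and 24.2, and 35.1 and 28.4 CPM. *Adamts17* was a Schwann cell transcript, at 98.9 (83.1 to 117) and 86.7 (73.4 to 102) CPM, a log2 ratio of -0.19 (-0.53 to 0.15). *Adamts16* was found mainly in the *Krtdap*/*Pi16* cluster, at 67.9 and 22.3 CPM, and in all mesenchymal cells was 15 (12.9 to 17.4) and 3.49 (2.26 to 5.15) CPM, a log2 ratio of -2.10 that was -3.29 with the 10 highest cells left out. *Adamts19* had 81 IgG and 7 SPP1-nAb UMIs in mesenchymal cells, at 6.75 and 0.978 CPM. *Adamts13*, which cuts von Willebrand factor, had 15 UMIs, and *Adamts18* had 53.

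The 4 TIMPs divided by cell class and by direction. *Timp1*, an inhibitor induced by cytokines, was 143 (137 to 150) against 341 (327 to 354) CPM in mesenchymal cells, a log2 ratio of 1.25 (1.16 to 1.34). It was found in 13.2% (11.7 to 14.7) and 28.9% (25.8 to 32.1) of those cells after thinning, beside 0 of 40 and 0 of 64 T and NK cells. At fixed cluster shares the mesenchymal ratio was 1.08. Under the *Gdf10*/*Inmt* cluster, the subcluster led by *Gdf10*, *Inmt* and *C7* had 76.2 and 260 CPM (log2 1.77). The *Lrrc15*/*Cthrc1* subcluster had 288 and 453 CPM (log2 0.65), and the *Fetub*/*Cxcl14* subcluster 465 and 546 CPM (log2 0.23, 0.08 to 0.39). Tenocytes had the highest level, 453 (422 to 486) and 756 (714 to 800) CPM. Satellite cells had 32.9 (28.7 to 37.6) and 75.1 (68.5 to 82.2) CPM, and dendritic cells 25.5 (22.1 to 29.4) and 67.1 (61.8 to 72.7) CPM, where the log2 ratio of 1.39 was 0.77 with cells gated one by one. In each of these classes the SPP1-nAb interval lay above the IgG interval. Phagocytes had 21.4 (20.1 to 22.7) and 32.3 (31.0 to 33.6) CPM, a log2 ratio of 0.59 (0.49 to 0.70), and 0.31 at fixed cluster shares, with 8 of 10 clusters higher. Schwann cells had 57.6 (45.8 to 71.6) and 52.8 (42.6 to 64.8) CPM, a log2 ratio of -0.13 (-0.57 to 0.32).

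*Timp3* was lower with SPP1-nAb in several classes. Mesenchymal cells had 427 (416 to 439) and 219 (208 to 230) CPM, a log2 ratio of -0.97 (-1.05 to -0.89), and a UMI was found in 46.7% (44.5 to 48.9) and 24.1% (21.3 to 27.2) of cells after thinning, beside 1 of 40 and 0 of 64 T and NK cells. The 2 large clusters each showed it, with 368 and 185 CPM in the *Gdf10*/*Inmt* cluster and 759 and 396 CPM in the *Krtdap*/*Pi16* cluster. Under the former it was lower in the subcluster led by *Gdf10*, *Inmt* and *C7*, at 542 and 222 CPM (log2 -1.29). The *Lrrc15*/*Cthrc1* subcluster went the other way, at 72.3 and 111 CPM (log2 0.61, 0.29 to 0.94), and the interval of the *Fetub*/*Cxcl14* subcluster, at 156 and 183 CPM, included 0 (log2 0.23, -0.04 to 0.50). The *Dlk1*/*Kcnb2* cluster was also higher with SPP1-nAb, at 88.2 and 542 CPM, on 15 SPP1-nAb cells. In Schwann cells *Timp3* was 376 (344 to 409) and 251 (228 to 276) CPM, and in endothelial cells 838 (771 to 910) and 606 (549 to 667) CPM, inside the fold in both classes. It was close to level in tenocytes, at 1346 (1292 to 1401) and 1272 (1217 to 1329) CPM, and in satellite cells, at 345 (331 to 359) and 369 (354 to 385) CPM. Within satellite cells, the *Nppc*/*Gal* cluster had 218 and 451 CPM.

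*Timp2*, which inhibits MMPs and also takes part in the activation of proMMP2 by MMP14, was not past the fold in any class with at least 100 of its UMIs. It was 306 and 289 CPM in phagocytes and 1112 (1093 to 1131) and 972 (950 to 995) CPM in mesenchymal cells. In phagocytes it was highest in the *Cd209f*/*Lyve1* cluster, at 645 and 613 CPM. *Timp4* was endothelial (78.8% of 560 UMIs), at 505 (453 to 561) and 140 (114 to 171) CPM, a log2 ratio of -1.85 (-2.19 to -1.52), and was found in 39.3% and 17.9% of endothelial cells, at median depths of 1158 and 1283 UMIs, beside 0 of 56 and 0 of 78 T and NK cells. Mural cells, which held 10.2% of its UMIs, had 49.8 (34.5 to 69.6) and 46.2 (29.3 to 69.4) CPM.

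**Figure D4:**
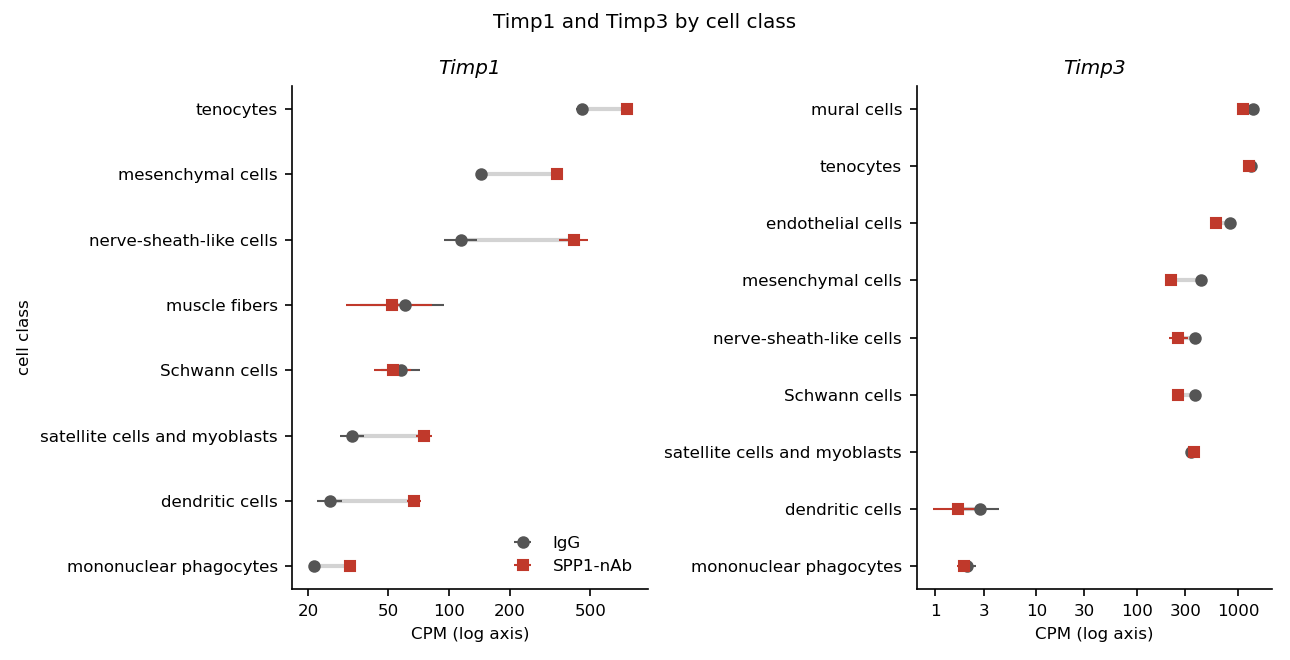
CPM (log axis) of *Timp1* (left) and *Timp3* (right) in each cell class with at least 30 UMIs, for the IgG (grey circles) and SPP1-nAb (red squares) libraries, with exact Poisson 95% intervals. *Timp1* is to the right in SPP1-nAb in tenocytes, mesenchymal cells, satellite cells, dendritic cells and phagocytes, and *Timp3* is to the left in mesenchymal, endothelial and Schwann cells.

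The nerve-sheath-like class, with 310 IgG and 95 SPP1-nAb cells, had 5 of 10 genes higher (beside 12.2% of all genes) and 0 lower (beside 11.9%). *Timp1* there was 114 (94.5 to 137) and 413 (349 to 486) CPM, a log2 ratio of 1.85 that was 0.19 with cells gated one by one. Its 9 mesenchymal markers summed to 49670 against 21877 CPM with none at 0, and their part was not tested.

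The share of each class in a library moved the whole-library levels. Over all kept cells, 5 of the 36 genes were at least 1.5-fold higher and 16 at least 1.5-fold lower in the SPP1-nAb library. With each class given the same share in both libraries, 7 were higher and 6 lower. *Mmp2* went from a log2 ratio of -0.64 to 0.41, *Mmp23* from -0.66 to 0.38 and *Adamts2* from -0.81 to 0.24, so these mesenchymal genes were lower in the library and higher in its cells. *Mmp3* went from 0.37 to 1.43 and *Timp1* from 0.44 to 0.96. *Mmp9* went from 0.70 to 0.03, the reverse, and neutrophils were 2.62% of IgG and 5.49% of SPP1-nAb cells. *Mmp19* was little moved, from 1.07 to 0.91, and *Adamts12* kept its direction, from -1.61 to -0.59.

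**Figure D5:**
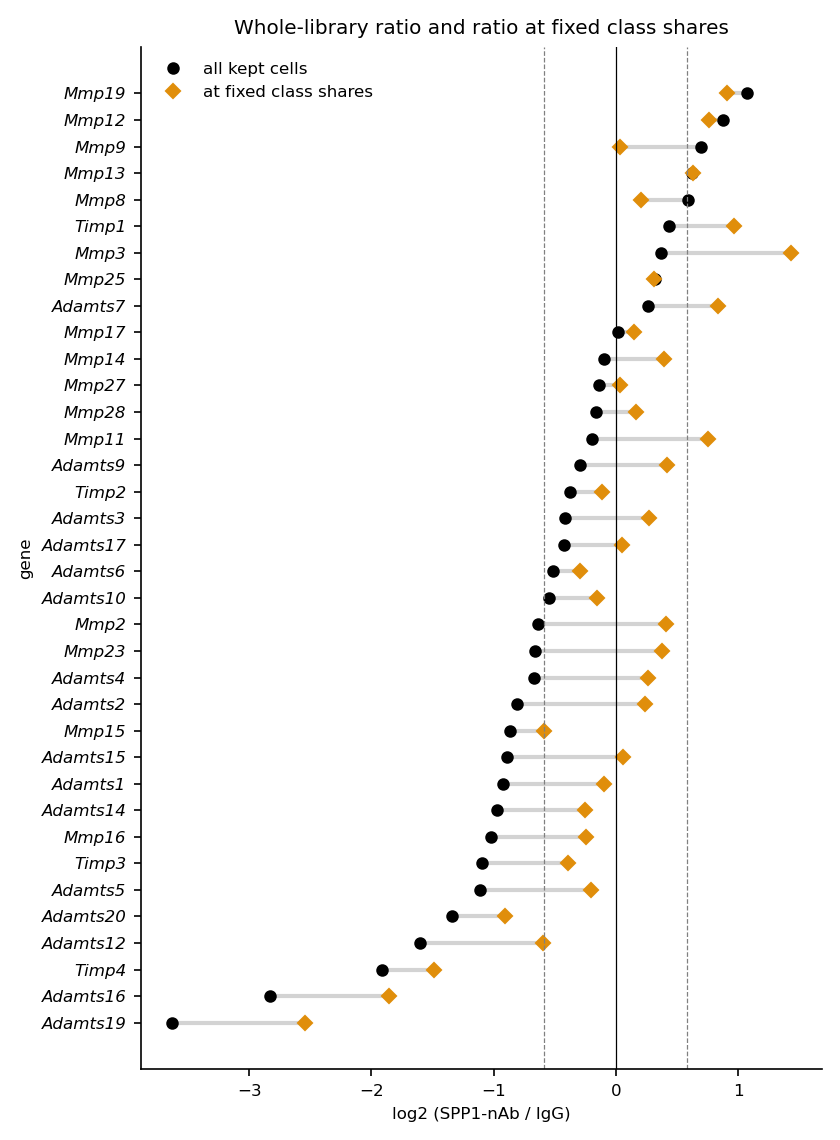
Log2 ratio of SPP1-nAb over IgG for the 36 genes over all kept cells (black circles) and with each cell class given the same share of UMIs in both libraries (orange diamonds). Dashed lines mark a ratio of 1.5 in either direction. The diamonds lie to the right of the circles for most mesenchymal genes and to the left for *Mmp9*.

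Genes around the proteases were read from lists of 19 activators and inhibitors, 15 relatives, 4 cysteine proteases, 16 matrix substrates and 5 SPP1 receptors. In mesenchymal cells, 3 of 14 measured activators and inhibitors were higher in the SPP1-nAb library (beside 4.84% of all genes) and 3 lower (beside 6.82%). Among the higher ones were the urokinase receptor *Plaur* (23.1 and 38.3 CPM) and *Lcn2*, which binds MMP9 (19.3 and 31.4 CPM). The lower ones were the membrane-anchored MMP inhibitor *Reck* (51.3 and 29.0 CPM), *Pcsk6*, a convertase (130 and 64.1 CPM), and *Spock2* (34.3 and 15.4 CPM). *Timp3* and *Reck*, both inhibitors, were thus lower in mesenchymal cells while *Timp1* was higher. *Reck* was also lower in tenocytes, at 64.4 and 37.4 CPM.

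Of the 4 cysteine proteases, *Ctss* (25.1 and 50.6 CPM) and *Ctsk* (334 and 511 CPM) were higher in mesenchymal cells, and *Ctsl* (600 and 942 CPM) in phagocytes. *Ctsk*, *Ctsl* and *Ctsb* were also past the fold in dendritic cells, and *Ctss* and *Ctsb* in tenocytes and endothelial cells. So were *Ctss* in Schwann and satellite cells, *Ctsl* in nerve-sheath-like cells, and *Ctsl* and *Ctsb* in muscle fibers. The part of free RNA in these levels was not tested. Phagocytes also had a higher *Adam8* (64.7 and 97.9 CPM) and a lower *Adam19* (63.0 and 32.1 CPM) and urokinase *Plau* (87.4 and 53.5 CPM). Among substrates, the antiangiogenic matrix protein *Thbs1* was higher in phagocytes (612 and 1029 CPM) and mesenchymal cells (350 and 620 CPM), and in tenocytes *Col3a1* (408 and 1014 CPM) and *Fn1* (633 and 1216 CPM) were. In Schwann cells, 2 of 10 measured substrates were higher (*Thbs1* and *Fn1*, beside 1.73% of all genes) and 5 lower (beside 2.39%), among them *Col1a1* (327 and 203 CPM) and *Spp1* (94.6 and 38.5 CPM).

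*Spp1* itself is a substrate of several MMPs and the protein that the antibody binds. Its transcript was 882 against 1232 CPM in phagocytes and 29.2 and 75.0 CPM in mesenchymal cells. The antibody acts on the protein, so these levels do not check the treatment. Over all kept cells the transcript was 538 and 906 CPM, and free RNA was estimated at 6.19% and 5.31% of mesenchymal UMIs. The part of free RNA in the mesenchymal level was not tested. The SPP1 receptor *Cd44*, which also docks MMP9 and MMP14 at the cell surface, was higher past the fold in mesenchymal cells (263 and 485 CPM), tenocytes (158 and 278 CPM) and satellite cells (150 and 313 CPM), and inside it in phagocytes (819 and 1005 CPM). Endothelial, mural and nerve-sheath-like cells also had *Cd44* higher past the fold.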

How the data were processed

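The 2 scRNA-Seq libraries, 1 per group, were analysed from the UMI counts per gene and barcode that the authors deposited, which are whole numbers without normalization. The submitters' processing notes name Cell Ranger 8.0.0 and GRCm39, the file headers cellranger 9.0.1. The study's correction for ambient RNA, its filters and its doublet removal came after these counts. Barcodes passed with over 200 detected genes and a mitochondrial share under 10%, and the 10% with the highest doublet scores (2 simulated doublets per barcode) were removed per library. Counts scaled to 10000 per cell, 2000 variable genes, 30 principal components, Harmony (rewritten here), a graph of 20 neighbors and Leiden clustering at resolution 1 followed, with python 3.11.15, numpy 2.4.6, scipy 1.17.1, scikit-learn 1.9.0 and leidenalg 0.10.2. Classes were assigned from 3 or more markers, each 1.5-fold up and seen in 10% or more of the cluster. At least 1 marker had to be among the 50 leading genes, or the 10 leading genes in clusters of low depth. Other clusters that fitted no list and were not of low depth counted as phagocytes on a further rule. This rule needed 5 of 10 phagocyte markers, each in at least 20% of their cells. Both thresholds were chosen once the clusters were known. UMIs were summed per gene, class and library, and intervals were exact Poisson (levels), exact binomial (ratios) and Clopper-Pearson (shares), at 95%. Ratios need at least 30 UMIs.

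Levels are given mainly in classes that hold at least 10% of a gene's UMIs, where it passes the fold or where it is highest. Not every such class is given, and some clusters are named where they differ. Of the pathway lists, at most 5 genes per class and direction with the largest ratio were eligible, besides *Spp1* and *Cd44*. *Col1a1* and *Col3a1* in mesenchymal cells were added after their values were seen. The genes and lists were chosen with earlier results of these data known. Coordinates are from GENCODE M39 for GRCm39, in which all 45 genes and 31674 of 32287 features were found. Clusters within Schwann cells and some listed genes are not reported here. The steps were tested on simulated data. Alternatives covered filters, doublets, integration, resolution, gating of single cells, free RNA, TMM scaling, the 10 cells highest in a gene, the mean over cells, the UMI minimum and the fold.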

Additional observations from a re-analysis of the deposited data

Results flagged for a closer look

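For 4 genes, levels were at least 1.5-fold apart in opposite directions in 2 classes, with counting intervals that exclude 0 in both. *Mmp16* had a log2 ratio of SPP1-nAb over IgG of 0.64 in tenocytes and -0.79 in Schwann cells. *Adamts1* had 0.74 in tenocytes and -0.61 in satellite cells and myoblasts. *Adamts6* had 2.37 in mural cells, on 9 IgG and 34 SPP1-nAb UMIs, and -0.73 in tenocytes. *Adamts12* had 0.93 in tenocytes, on 24 and 41 UMIs, and -0.69 in mesenchymal cells, and its tenocyte value turned to -0.33 without integration. With 1 library per group, the difference between classes was not tested for any of them, and no sample could be compared with others of its group.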

How the results depend on the processing

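The 57 ratios of at least 1.5-fold with at least 30 UMIs and an interval that excludes 0 were recomputed under 12 settings, and 585 values moved less than their counting interval, 66 moved more in the same direction, and 10 changed sign. The remaining cases gave no ratio, because too few UMIs were left or the class was not found. *Mmp19* in phagocytes (0.95 to 1.10), *Mmp3* (1.32 to 1.73), *Timp1* (1.01 to 1.74), *Timp3* (-1.20 to -0.90) and *Adamts12* (-0.74 to -0.58) in mesenchymal cells, *Mmp13* in tenocytes (3.92 to 4.98) and *Timp4* in endothelial cells (-2.13 to -1.70) kept their direction in each setting that gave a value. *Mmp3* in tenocytes ranged from 0.81 with no doublets removed to 2.55. The sign changed for *Mmp13* in dendritic cells (-0.39 with 20% doublets removed, -1.03 with cells gated one by one), *Adamts2* in mural cells (-0.12 with less than 5% mitochondrial UMIs) and *Adamts12* in tenocytes (-0.33 without integration). In nerve-sheath-like cells it changed with cells gated one by one for *Adamts2* (-0.23) and *Adamts9* (-0.23), with the 10 cells highest in a gene left out for *Adamts2* (-0.39), *Adamts4* (-0.80) and *Adamts9* (-0.78), and with the mean over cells for *Adamts9* (-0.081). The causes were not tested.

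In phagocytes, 2 genes were higher and 2 lower past the fold. The higher count was 1 with less than 5% mitochondrial UMIs, with no doublets removed and with no integration, and 4 with cells gated one by one, with the 10 cells highest in a gene left out and with at least 30 UMIs. The lower count was 1 with more than 500 genes, with no doublets removed, with cells gated one by one and with the free-RNA part removed. With no minimum they were 8 and 9, and with a fold of 2, 0 and 0. In mesenchymal cells, 5 were higher and 4 lower: 9 higher by the mean over cells, 8 with at least 30 UMIs, 13 higher and 9 lower with no minimum, and 2 and 2 with a fold of 2. In tenocytes, 7 were higher and 1 lower: 0 lower by the mean over cells, 2 lower with at least 30 UMIs, 20 higher and 3 lower with no minimum, and 3 and 0 with a fold of 2. With the 10 cells highest in a gene left out, tenocyte *Mmp16* (0.45) and *Adamts9* (0.34) were inside the fold. *Mmp13* then had no ratio, at 0 and 88.7 CPM.

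No paired analysis was possible because each group has 1 library. No library could be left out for the same reason, and library, mice, sort and antibody cannot be told apart. Estimated free RNA was 3.78% to 14.9% of UMIs per named class, and TMM scaling shifted ratios by -0.06 to 0.20. The smallest classes limit what can be seen: 56 IgG T and NK cells and 133 SPP1-nAb mural cells gave few UMIs of most genes.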

Other observations

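The 749 IgG and 688 SPP1-nAb cells without a class had a free-RNA estimate of 40.3% and 32.6% and enter no comparison. They held *Adamts5* at 127 CPM (107 to 150) and 44.6 CPM (33.0 to 58.9), *Adamts9* at 28.3 and 66.4 CPM and *Adamts2* at 62.2 and 36.4 CPM.

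Muscle fibers, at 112 IgG and 122 SPP1-nAb cells, had no MMP, ADAMTS or TIMP gene with 100 UMIs. In satellite cells and myoblasts, 4 of 10 measured matrix substrates were higher past the fold in the SPP1-nAb library (*Spp1*, *Thbs1*, *Fn1* and *Col1a2*) and none lower, beside 6.8% of all genes higher and 3.84% lower. Free RNA was estimated at 6.89% and 12.4% of the UMIs of this class. *Spp1* was 51.8 and 120 CPM in it, beside 538 and 906 CPM over all kept cells. The part of free RNA in these calls was not tested. *Plaur* was 61.1 CPM and 105 CPM in satellite cells and myoblasts. In tenocytes, *Adam12*, a membrane protease of the ADAM family, was 11.4 CPM and 52.6 CPM, on 20 and 83 UMIs, and *Lcn2* was 69.6 and 151 CPM. Both libraries of T and NK cells together held 134 cells, in which none of the 45 genes reached 100 UMIs.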
